A study of Drosophila melanogaster with 2 samples.

Results

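The 9 genes described here, twi, sna, htl, Mef2, tin, sim, rho, vnd and ind, act in the mesoderm, the ventral midline and the ventral neuroectoderm of the fly embryo. They were listed by name, and a peak was given to a gene where its summit lay in the gene body or where the nearest transcription start site (TSS) of any protein-coding gene was one of its own. They are 9 of 13945 protein-coding genes on the main chromosome arms, and 67 of 30000 pooled peaks belonged to them. Binding was mapped by chromatin immunoprecipitation and sequencing (ChIP-seq) in whole Drosophila melanogaster embryos aged 0 to 4 hours. All embryos carried a stable insertion from which CG7271 is made with a C-terminal GFP tag (green fluorescent protein), all in 1 line. The precipitation was done with anti-GFP according to the description, although the antibody label reads CG7271. The 2 libraries, biological replicates 2 and 3, were made from different biosamples and are the only group, so no condition was compared with another. The labels name a possible control experiment, which was not analysed here, and no untagged or mutant embryos were compared.

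The Dorsal protein, a transcription factor of the NF-kappaB family, enters the nuclei of the ventral side and sets the fates along the dorsoventral axis. Where Dorsal is highest it activates twi and sna, which specify the mesoderm, and at lower levels it activates rho, vnd and other genes of the neuroectoderm, while sim marks the strip of mesectoderm between them. Mef2, tin and htl then act in the mesoderm as it spreads and divides into muscle and heart. In whole embryos, strong binding in few cells and weak binding in many cannot be told apart.

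Of these genes 3 had a reproducible peak, one that passed the authors' irreproducible discovery rate (IDR) threshold. They were sim with 1 peak, tin with 1 and Mef2 with 4, while twi, sna, rho, vnd, ind and htl had none. Across all protein-coding genes 14.9% had such a peak by the same assignment. The sim and tin peaks stood at ranks 120 and 138 of 2445 by the authors' signal, a value per peak whose scale is not stated. The 4 Mef2 peaks stood between ranks 1072 and 1998. The 6 peaks together had a median rank of 1302 and a median signal of 154, beside a median of 157 over the whole IDR list. A peak of the pooled list was assigned to each of the 9 genes, which also holds for 69.9% of all protein-coding genes.

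**Figure D1:**
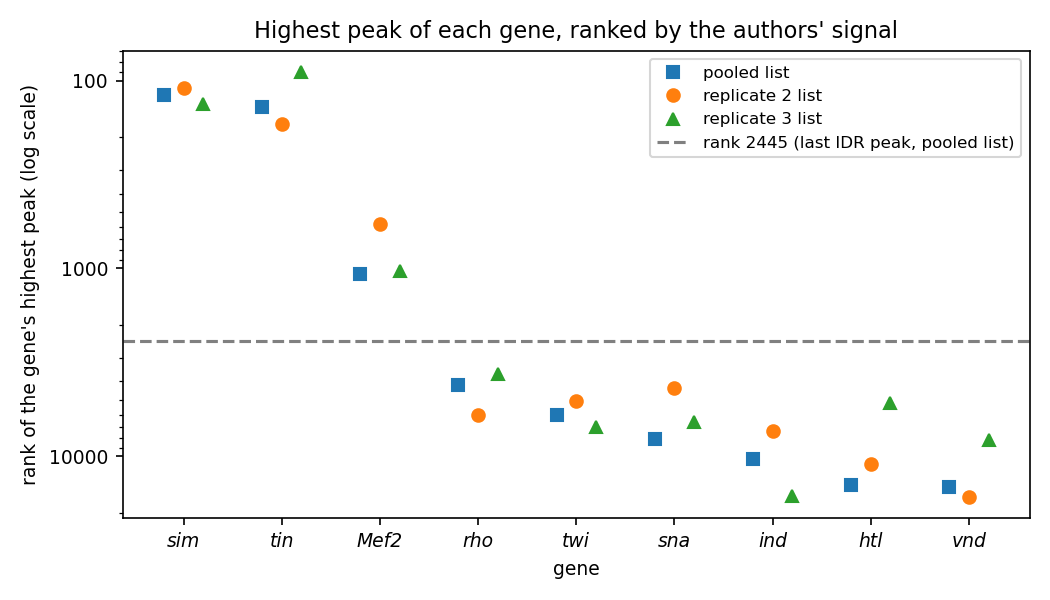
Rank by signal of the highest peak of each gene (vertical axis, log scale, rank 1 at the top) in the pooled list (squares), the replicate 2 list (circles) and the replicate 3 list (triangles). The highest peaks of sim, tin and Mef2 lie above the dashed line at rank 2445 in all 3 lists, and those of the other 6 genes lie below it in all 3.

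The sequences of the sim and tin peaks are shown because they are the members' highest peaks, and that of rho because its summit lies 1 bp before the start site. They are the plus strand of dm6 from the RefSeq copy of that assembly, 5′ to 3′, and all 3 genes lie on this strand. Capitals mark matches to motifs of early regulators searched on both strands, so CTCTC stands for GAGAG and CACGT for ACGTG on the minus strand. In the rho sequence they mark the letters TATAAA, looked for after its sequence was seen. The sim sequence is the whole peak, chr3R:13068092-13068329, the tin sequence the whole peak, chr3R:21378661-21378873, and the rho sequence the 51 bases before the start, chr3L:1463760-1463810, where the summit is the last base.
sim intron: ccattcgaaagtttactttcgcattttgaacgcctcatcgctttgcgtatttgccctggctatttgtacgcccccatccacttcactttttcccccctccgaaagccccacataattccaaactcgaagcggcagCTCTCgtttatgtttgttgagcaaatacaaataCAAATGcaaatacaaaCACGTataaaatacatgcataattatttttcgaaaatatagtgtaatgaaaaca
tin upstream: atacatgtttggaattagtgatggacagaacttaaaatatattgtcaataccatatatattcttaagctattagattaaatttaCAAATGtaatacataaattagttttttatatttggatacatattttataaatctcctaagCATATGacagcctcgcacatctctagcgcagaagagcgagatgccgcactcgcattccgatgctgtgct
rho start: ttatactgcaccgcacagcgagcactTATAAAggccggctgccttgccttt

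sim encodes a transcription factor of the bHLH-PAS family that directs the development of the ventral midline. The gene lies on the plus strand of 3R (13057755 to 13078124) and has 3 annotated start sites, at 13057755, 13062522 and 13072399. Its reproducible peak had a signal of 429, which is 8.37 times the median of the pooled list. The summit, base 130 of the sequence above, lay in an intron 4178 bp upstream of the third start site. It ranked 109 in replicate 2, with a signal 7.33 times that list's median, and 133 in replicate 3, at 8.06 times the median. The summits of the 2 replicates lay 27 and 1 bp from the pooled summit. Both replicates thus placed this peak within their 133 highest. The IDR list holds exactly the 2445 pooled peaks of highest signal, and the pooled list was called on both replicates, so these ranks are not independent of how the peaks were chosen. Among all 715 reproducible peaks in introns away from promoters it ranked 18. The other 6 pooled peaks of sim were lower. The next one, 1498 bp downstream of the second start site, had a signal of 103 and pooled rank 3187, with ranks 4642 and 2813 in replicates 2 and 3. It fell below the lowest signal in the IDR list, 115. A peak 6122 bp downstream of the third start site, beyond the end of the gene, ranked 11707 in replicate 2 but 2357 in replicate 3. No pooled summit lay within 500 bp of a start site of sim. Replicate 2 had a summit of rank 21548 at the third start site, and replicate 3 had a summit of rank 25338 at the second.

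tin encodes a homeodomain protein of the NK-2 class needed to form the heart and the visceral muscle. It lies on the plus strand of 3R (21378977 to 21381970) with 1 start site, between mod(mdg4), whose end lies 1575 bp to its left, and bap, 6909 bp to its right. bap encodes a related homeodomain protein of the visceral mesoderm. The reproducible peak of tin had a signal of 408, or 7.96 times the pooled median, and its summit lay 190 bp upstream of the start site. This peak ranked 171 in replicate 2 (6.28 times the list's median) and 90 in replicate 3 (9.00 times). The replicate summits lay 15 bp to either side of the pooled one. The peak ended 104 bp before the start site, so it covered none of the transcribed sequence. Among the 1279 reproducible promoter peaks, those with a summit within 500 bp of a start site of any gene, it ranked 96. tin was the only one of the 9 genes with a reproducible summit within 500 bp of its own start site, which 12.0% of all protein-coding genes had. Its other pooled peak, in the coding sequence 1488 bp downstream, ranked 22534 and had a summit in replicate 2 but not in replicate 3.

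Mef2 encodes a MADS-box transcription factor that switches on the genes of differentiated muscle. It lies on the minus strand of 2R (9913496 to 9958858), with start sites at 9958858, 9944764 and 9929615. It had the most peaks of the 9 genes, 18 in the pooled list, 19 in replicate 2 and 23 in replicate 3. Its 4 reproducible peaks all lay inside the gene and away from the promoters. Among all protein-coding genes, 0.466% had 4 or more reproducible peaks, and long genes can hold more of them. The highest (signal 166, rank 1072) lay in an intron 2059 bp downstream of the middle start site. The next (signal 142, rank 1531) lay in an exon annotated as 5′ UTR, 1830 bp downstream of the same site. These 2 summits were 229 bp apart and the 380 bp peaks shared 151 bp. The replicates differed in which of them was higher. Replicate 2 ranked the pair 580 and 3471, whereas replicate 3 had no summit within 100 bp of the first and ranked the other 1036. The third peak (signal 128, rank 1960) lay 6205 bp upstream of the start site at 9929615 and ranked 1700 in replicate 2 and 3919 in replicate 3. The fourth (signal 127, rank 1998) lay 4426 bp upstream of the middle start site, with ranks 3099 and 2584. All but the highest thus had summits in both replicates, and only 1 of the 4 was above rank 2445 in replicate 3. The other 14 pooled peaks of Mef2 had signals from 37.8 to 79.4. The highest of them lay 3331 bp downstream of the start at 9958858, at rank 5538, and ranked 6929 and 6422 in the replicates. At the promoter, pooled summits 328 and 115 bp downstream of that start ranked 17637 and 20167. Replicate 3 had a summit of rank 5065 that the pooled list lacked, 70 bp downstream of the start at 9929615. Of all 18 peaks 9 had summits within 100 bp in both replicates. The genes most like Mef2, with 4 reproducible peaks and the closest highest signal among 34 others, were CheA75a (167), pnt (171), Eip63E (161) and crp (158).

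**Figure D2:**
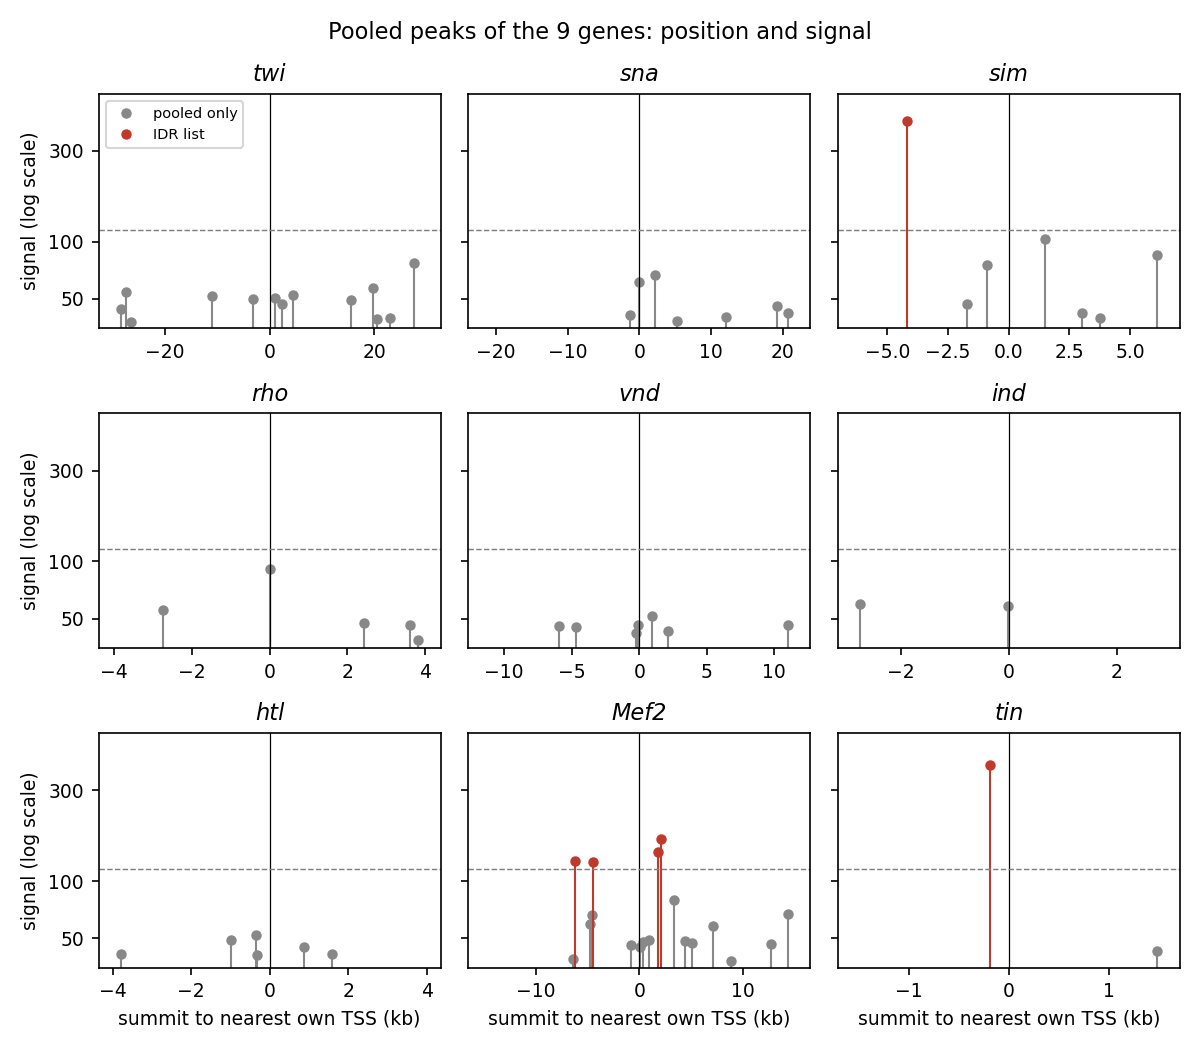
Signal (vertical axis, log scale) of every pooled peak of each gene against the distance of its summit from the nearest start site of that gene in kb, negative upstream; the horizontal scales differ between genes. Red points are in the IDR list and the dashed line is the lowest signal in it, 115. sim and tin each have 1 peak far above the line, and 4 Mef2 peaks lie above it at signals from 127 to 166.

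Among the mesoderm genes without a reproducible peak, sna encodes a zinc finger repressor that keeps neuroectoderm genes off in the mesoderm. It is a short gene on the minus strand of 2L (15476593 to 15478260), and the summits of its 7 pooled peaks all lay outside it. For 4 of them the nearest start site of any gene type was that of a lncRNA, and 3 were left when such start sites counted. The highest (signal 66.9, pooled rank 8098) lay 2216 bp downstream of the start site and ranked 4322 in replicate 2. Replicate 3 had no summit within 100 bp, but an overlapping peak with its summit 2400 bp downstream ranked 22770. The peak at the sna promoter, 40 bp upstream of the start, ranked 6611 in replicate 3. Replicate 2 had no summit within 100 bp of it, but an overlapping peak with its summit 155 bp downstream of the start ranked 12979. None of the 7 had a summit within 100 bp in both replicates. twi encodes the bHLH activator that specifies the mesoderm. Its gene model on the plus strand of 2R (22985374 to 23048325) includes 1 transcript that starts far upstream of the others, at 22985374 against 23046108 and 23046322. Of its 13 pooled peaks, 11 lay in this long upstream part, where the nearest protein-coding start site was that of CG9896, CG9897 or CG42741, genes within it. The highest of these (signal 76.8, rank 6020) lay in a coding exon of CG42741 and ranked 5890 and 8949 in the replicates. The remaining 2, 1101 and 2272 bp downstream of the last twi start, ranked 15460 and 18559, and no summit lay within 500 bp of a start site of twi in any list. htl encodes the fibroblast growth factor receptor that the spreading mesoderm needs. It lies on the minus strand of 3R (18045216 to 18052984). Its 6 pooled peaks ranked 14284 at best. The highest (signal 52.4), 350 bp upstream of the start at 18049366, ranked 5225 in replicate 3. Replicate 2 had no summit within 100 bp of it, but an overlapping peak with its summit 544 bp upstream of that start ranked 18260. A further promoter summit, 314 bp upstream of the start at 18052984, had rank 9922 in replicate 3 and none within 100 bp in replicate 2. In replicate 2 the highest htl peak (rank 11048) matched a pooled summit 975 bp upstream, which replicate 3 lacked.

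The neuroectoderm genes rho, vnd and ind had no reproducible peak either. rho encodes an intramembrane protease that releases ligands of the epidermal growth factor receptor, and it lies on the plus strand of 3L (1463811 to 1468944) within the gene Ptp61F. Its highest peak had a signal of 90.9 and pooled rank 4182, the best rank among the 6 genes outside the IDR list. The summit of replicate 3 lay 77 bp further upstream and ranked 3637, whereas the nearest promoter summit of replicate 2 lay 134 bp downstream of the start and ranked 6025. The letters TATAAA began 25 bp before the rho start site, and 9.43% of the 19253 annotated protein-coding start sites have them in the 51 bases upstream on the gene's own strand. vnd encodes a homeodomain protein of the medial column of neuroblasts and lies on the X chromosome (582121 to 598151). Its 7 pooled peaks ranked between 14647 and 23793, with signals from 42.0 to 51.8, and 2 of them lay 56 and 263 bp upstream of its start sites. None of the 7 had a summit within 100 bp in both replicates. Near the highest, 930 bp downstream of a start, summits 900 bp downstream in replicate 2 and 808 bp downstream in replicate 3 ranked 26123 and 25171. Apart from the 2 promoter peaks, 2 lay upstream in the 3′ UTR of Appl. The rest lay within the gene spdi, in introns inside vnd or 11003 bp downstream of a start, beyond the end of vnd. The highest vnd summit of replicate 2 ranked 16417 (3960 bp downstream of a start) and that of replicate 3 ranked 8192 (10855 bp downstream). ind encodes a homeodomain protein of the intermediate column and lies on the minus strand of 3L (15042799 to 15043924), within the gene Sytbeta. It had 2 pooled peaks. One lay 20 bp upstream of the start site (signal 58.5, rank 11003) and ranked 13533 and 16207 in replicates 2 and 3. The other (signal 60.0, rank 10359) lay 2749 bp upstream, had a replicate 2 summit of rank 24672 at 91 bp and had no summit in replicate 3. Another replicate 2 peak, which overlapped this pooled peak, ranked 7359. Its summit lay 2639 bp upstream of the start and more than 100 bp from the pooled summit.

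**Figure D3:**
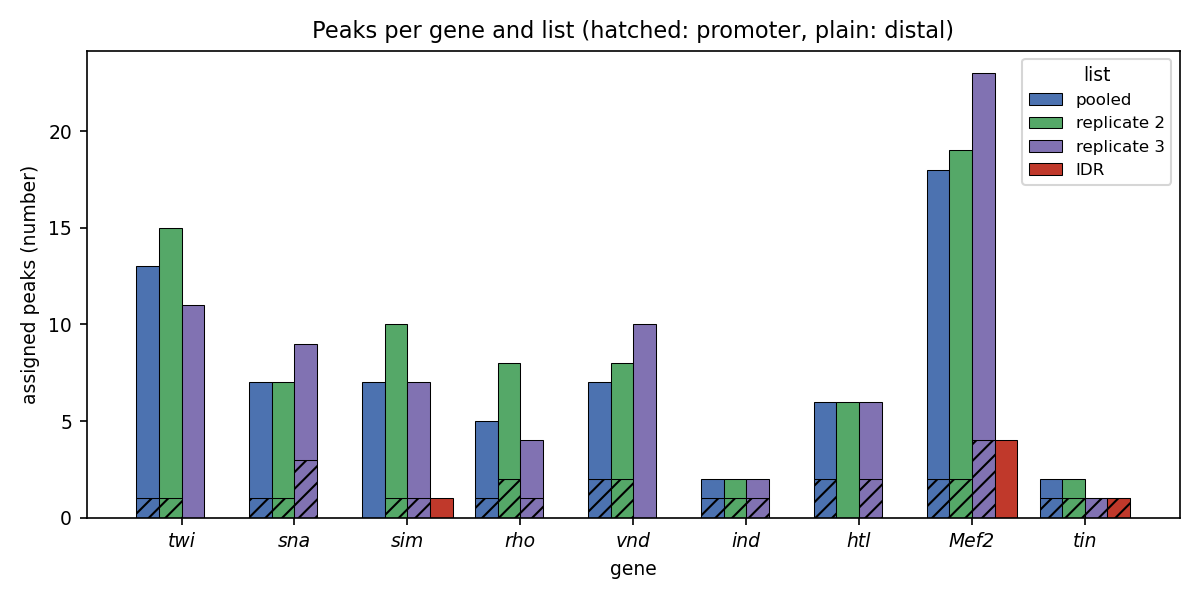
Number of peaks assigned to each gene (vertical axis) in the pooled, replicate 2, replicate 3 and IDR lists, with the part at the promoter of any gene hatched. Most peaks of every list were distal, and Mef2 and twi, the longest genes, had the most pooled peaks, 18 and 13.

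The 67 pooled peaks had a median rank of 17637 of 30000, and 40 of them ranked below the middle of the list. In the whole list as many peaks rank below the middle as above it. The highest signal of a member peak outside the IDR list was 103. Of the 67, 6 were in the IDR list (8.96%, exact Clopper-Pearson 95% interval 3.36 to 18.5%), beside 8.15% of all pooled peaks. A summit within 100 bp was found in both replicates for 20 of them (29.9%, 19.3 to 42.3%), beside 36.4% of all pooled peaks, and in neither for 7 (10.4%), beside 11.1%. Of these 20 peaks, 9 belonged to Mef2, 4 each to sim and twi, and 1 each to ind, htl and tin. Of the 77 member peaks in replicate 2, 33 had no pooled summit within 100 bp (30.0% over that whole list), and of the 73 in replicate 3, 38 had none (44.6%). Of the 77 and 73 member peaks of replicates 2 and 3, 4 each were among the 2445 highest of their list. The whole lists held 30000 and 29999 peaks, and 2445 of 30000 is 8.15%. Each set of 4 covered sim, Mef2 and tin. A peak among these 2445 was assigned to 15.0% of all protein-coding genes in replicate 2 and to 14.8% in replicate 3. The intervals here cover only the counting error of peaks taken as independent, although the peaks are grouped in 9 genes and some overlap. Sequencing depth is unknown from these files.

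**Figure D4:**
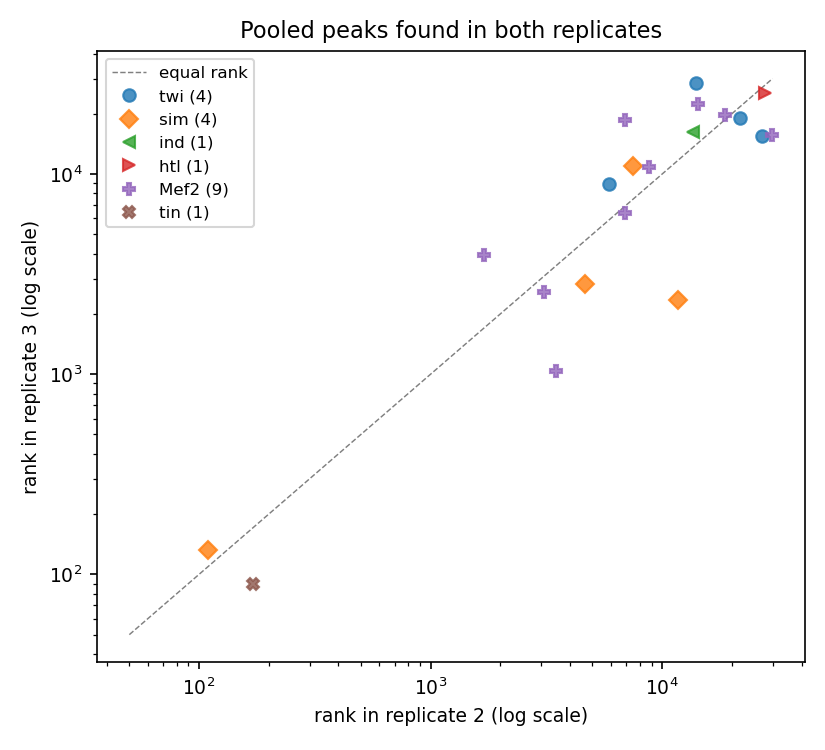
Ranks in replicate 2 (horizontal) and replicate 3 (vertical), both on log scales, of the 20 pooled peaks of these genes with a summit in both replicates; the legend gives the number of peaks for each gene and the dashed line marks equal ranks. The sim peak (109 and 133) and the tin peak (171 and 90) have lower rank numbers in both replicates than any of the others, whose best rank is 1036.

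The peaks lay mostly away from promoters. A summit within 500 bp of a start site of any gene was present for 11 of the 67 pooled peaks (16.4%, 8.49 to 27.5%), beside 30.2% of all pooled peaks, and for 1 of the 6 reproducible ones, beside 52.3%. Introns held 33 of the 67, intergenic sequence 9, coding exons 5, 3′ UTRs 5, 5′ UTRs 2 and non-coding exons 2. Of the 11, 10 were at a promoter of the gene itself. The other, at CG42741, lay inside the long twi gene. The pooled list had a summit at the own promoter of 7 of the 9 genes, all but twi and sim, which 54.2% of all protein-coding genes had. Replicate 2 had one at 7 of 9 and replicate 3 also at 7 (53.3% of all protein-coding genes in either list). Both replicates had one at sna, sim, rho, ind, Mef2 and tin, 6 of 9, beside 43.6%. This count does not require the replicate summits to match. At sna, sim and rho they did not match within 100 bp, and at sim they lay at different start sites. Apart from that of tin, these promoter summits had ranks of 3637 or more, outside the 2445 highest of either replicate.

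Long genes and wide gaps between genes catch more summits, so summits were also counted per 10 kb of the sequence that belonged to each gene, its body and the bases nearest to its start sites. This territory measured 267 kb for the 9 genes. It held 2.51 pooled and 0.225 reproducible summits per 10 kb, compared with 2.24 and 0.183 over the 6 chromosome arms. With the 2445 highest peaks of replicate 2 or of replicate 3 alone in place of the IDR list, the value was 0.150 in both cases, below that of the arms. The pooled values ran from 1.47 for vnd to 5.11 for ind, whose territory of 3.91 kb held 2 summits. Mef2 stood at 3.94 pooled and 0.875 reproducible summits per 10 kb. tin had 1.74 reproducible summits per 10 kb, which is 1 summit in 5.74 kb, and sim had 0.411.

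**Figure D5:**
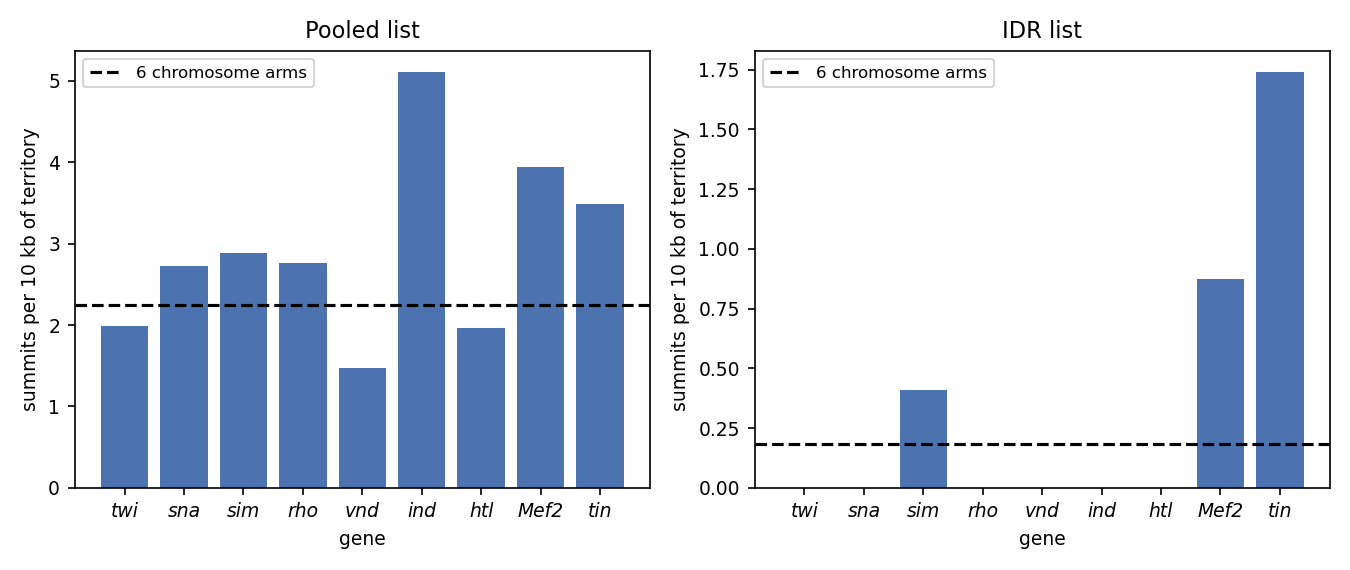
Pooled (left) and reproducible (right) summits per 10 kb of the sequence belonging to each gene; the dashed line is the value over the 6 chromosome arms, 2.24 and 0.183. Reproducible summits were found at sim, Mef2 and tin, and each bar there rests on 1 to 4 summits.

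Sites known for the regulators of these genes were then sought within 50 bp of the 6 reproducible summits. An E-box of any kind (CANNTG), the class of site that bHLH proteins and Snail bind, was present at 5 of the 6, beside 34.1% of all IDR summits. Within 100 bp the same 5 held one, beside 58.6%. These were the sim peak, the tin peak with 2 such sites and the Mef2 peaks other than the highest. With 6 windows this is a description. The sim site lay 41 bp to the right of the summit and the tin sites 40 bp to the left and 20 bp to the right, as the sequences above show. The Snail form (CAGGTG) was found at 1 Mef2 peak, the fourth, beside 2.21% of IDR summits. The only form searched for Twist (CACATG) was found at none, beside 3.48%. Other E-boxes, such as CATATG at tin, were counted only as E-boxes of any kind. The GAGA element (GAGAG) was at the sim peak and the highest Mef2 peak (10.6% of IDR summits) and a Su(H) site (TGGGAA), the target of Notch signalling, at the latter (5.07%). None of the 6 windows held the Zelda site (CAGGTAG, 0.491%), the Dorsal site (GGGNNNNCC, 2.94%), the NK-2 class site of Tin and Vnd (TCAAGTG, 1.47%) or the core that Sim binds with its partner Tgo (ACGTG, 7.32%). Within 100 bp of the summit the ACGTG core was present in the sim peak, beside 14.6% of IDR summits. The GC content of the 101 bp windows was 41.6% at sim, 27.7% at tin and from 26.7 to 51.5% at Mef2, beside 34.9% ± 10.7 (SD over 2445 windows).

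Other genes of ventral patterning and early mesoderm were described from a list of 55, chosen with earlier results of these data known. Of these 22 had a reproducible peak at any distance (40%, beside 14.9% of all protein-coding genes) and 14 had one at their own promoter (25.5%, beside 12.0%). Their territory of 1434 kb held 0.300 reproducible summits per 10 kb. The maternal genes that lead to Dorsal had a peak in 2 of 13 cases. These were cact, the inhibitor of Dorsal (rank 663, 118 bp upstream), and pip, a sulfotransferase gene that marks the ventral eggshell (rank 922, in an intron). Mesoderm and gastrulation genes had one in 8 of 18, beside the same 14.9%. Of the highest, the peak of stumps, an adaptor that acts below the Htl receptor, lay 348 bp upstream of the start (signal 320, rank 252, ranks 220 and 335 in the replicates). Then came ths, which encodes a ligand of Htl (signal 302, rank 288, 22034 bp downstream of its start), and NetA, which encodes a secreted guidance protein (signal 277, rank 355). The gene of the other Htl ligand, pyr, had 12 pooled peaks and 0 reproducible ones. The promoters of cta (1758), RhoGEF2 (2292), Mes2 (2380) and Traf4 (1370) also carried summits at these ranks. Of these, cta encodes a G protein subunit, and both it and RhoGEF2 act in the cell shape changes of gastrulation. The RhoGEF2 summit ranked 9713 in replicate 2 and 856 in replicate 3.

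Genes of the mesectoderm and ventral neuroectoderm had a reproducible peak in 12 of 24 cases, beside 14.9% of all protein-coding genes. The highest belonged to Delta, the Notch ligand gene (signal 689, rank 25, with 24 and 32 in the replicates), 13187 bp upstream of its start, and another Delta peak lay 15 bp upstream (rank 941). BobA (signal 345, rank 210) and Tom (signal 329, rank 235), genes of the Bearded family that act on Notch signalling, had peaks 10353 and 8107 bp upstream. The peak of S, which encodes the Star protein, lay in an intron 5426 bp downstream (signal 319, rank 254, ranks 306 and 205 in the replicates). N, the Notch receptor gene, had an intronic peak of rank 350 and a promoter peak of rank 1451. Promoter summits were also found at aos (661), pnt (1011), sli (1114), Dr (1312), brk (1484) and neur (1565). Of these, aos encodes an inhibitor of the epidermal growth factor receptor, pnt an effector of the same pathway, sli a midline signal and a known target of Sim, Dr the homeodomain protein of the lateral neuroblast column, brk a repressor of Dpp targets and neur a ubiquitin ligase that acts on Delta. Among the genes that mark the 3 columns of neuroblasts, Dr had reproducible peaks, the highest at rank 1312, and vnd and ind had none. The territories measured 36146 bp for Dr, 47667 bp for vnd and 3911 bp for ind, and the difference between these genes was not tested.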

How the data were processed

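The 4 deposited peak lists, in narrowPeak format on dm6, were called by the authors on replicate 2, on replicate 3 and on both pooled, each against a control alignment, and the last holds the pooled peaks that passed an IDR threshold, per the deposited notes. Which caller, aligner and IDR threshold were used is not stated in the labels or notes. The deposited signal per peak, of unstated scale, gave the ranks within each list. The authors' −log10 q values were not used because many peaks share the highest one. Sequencing depth is unknown. The IDR list holds exactly the 2445 strongest pooled peaks. From these lists, summits were assigned with Ensembl release 115 gene models in dm6 coordinates, leaving out transposable elements, in Python 3.11.15 with pandas 2.3.3 and SciPy 1.17.1. The assignment was checked on made-up positions. Replicate peaks were matched within 100 bp, and promoters were taken as 500 bp around start sites of genes of any type. Intervals are exact Clopper-Pearson ones. The members, lists and motifs were chosen with earlier results of these data known, so no test was made. The list of 55 genes was matched by symbol, with mist, wind, Bob and Dl under the current symbols mthl1, wbl, BobA and Delta. Genes named are all 9 members, hosts and neighbours of their peaks, 4 genes like Mef2, and from the list the 8 of highest signal and those with a promoter summit, plus pip and pyr, named after their values were seen. Alternatives changed the assignment, the promoter and matching distances, the list, the motif window and the replicates used. A transcript model of twi was left out as an alternative chosen after seeing the data.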

Additional observations from a re-analysis of the deposited data

How the results depend on the processing

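No paired analysis was possible because there is 1 group of samples and no test. The 3 genes with a peak were also sim, tin and Mef2 among the 2445 highest peaks of replicate 2 or replicate 3 alone, which are not IDR peaks, and among the 1222 IDR peaks of highest signal. Of the 6 peaks 3 were among those 1222. Within the gene body alone the tin peak was not counted, which left 5 peaks at 2 genes. With the 2445 highest peaks of 1 replicate, 4 peaks were counted in either case: Mef2 had 2 from replicate 2 and 1 from replicate 3, and sim had 1 and 2. The density of these summits was 0.150 per 10 kb in each case, beside 0.225 for IDR summits. Of the pooled peaks, 7 lay at a promoter within 200 bp and 17 within 1000 bp, beside 11 within 500 bp. Pooled peaks with summits in both replicates numbered 16 within 50 bp, 28 within 200 bp and 30 by any overlap, beside 20 within 100 bp. The shares over all pooled peaks given above hold only for promoters within 500 bp and matches within 100 bp, so these other counts have none beside them. With the far upstream transcript of twi left out, twi kept 2 of its 13 pooled peaks. By nearest protein-coding start site alone it also had 2. With start sites of any gene type, sna kept 3 of its 7. The depth of the libraries is unknown, so a gene without a peak cannot be said to be unbound.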
